A study of Mus musculus with 17 samples.

Results

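The Bach2 locus was described from the 55 accessible regions, of 66177 in all, that the deposited table assigns to Bach2 as the nearest transcript or the nearest transcription start. Both columns named Bach2 for 46 of them. Only the transcript column did so for 8, of which 7 lay nearest the start of Bach2os, a noncoding gene antisense to Bach2 inside its 3' part, and 1 nearest Gja10. Only the start column did so for 1 region, which lay nearer the transcript of Map3k7. ATAC-seq, which cuts open chromatin with a transposase so that reads accumulate where DNA is accessible, was carried out on naive B cells (nB; B220+ GL7- Fas-) from lymph nodes of unimmunized mice, on phycoerythrin (PE)-specific germinal center B cells (GCB; B220+ GL7+ Fas+ PE+) from lymph nodes, and on CD138+ plasma cells from bone marrow (BMPC). GCB and BMPC were taken 30 days after immunization with PE. Dnmt3-sufficient mice (C) and their Dnmt3-deficient littermates (KO) were each Dnmt3a fl/fl together with Dnmt3b fl/fl, so both genotypes carried the loxP sites, and a Cre gene active in the B lineage was present in KO only. There were 3 C and 2 KO libraries of nB, 2 C and 4 KO of GCB, and 3 C and 2 KO of BMPC. GCB libraries were pools of mice, BMPC were sorted on CD138 without regard to antigen, and the mice were of the B6;129S4-Dnmt3atm3.1Enl Dnmt3btm5.1Enl/Mmnc background. Every nB library came from male and every BMPC library from female mice, and GCB pools were of both sexes, so sex and cell type cannot be told apart between nB and BMPC.

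BACH2 is a basic leucine zipper transcription factor of the CNC family that binds DNA as a heterodimer with small Maf proteins, at sites that resemble those of AP-1, and acts mostly as a repressor. In B cells it is best known for holding down Prdm1, the gene of the plasma cell regulator BLIMP-1, and for its need in class switching and somatic hypermutation. Bach2 is expressed in naive and germinal center B cells and is shut off as plasma cells form, which makes its chromatin a natural place to follow the exit from the B cell state. Accessibility is not expression, and the values below say only where DNA could be cut.

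The 55 regions spanned 462.3 kb of chromosome 4 (mm9), from 32213362 to 32675615. Bach2 (ENSMUSG00000040270.9) is annotated on the plus strand of the same build from 32325779 to 32673083, a length of 347.3 kb. By the table's annotation 18 regions lay upstream of the gene, 1 was its promoter, 32 were intronic, 2 overlapped an exon as well as an intron, and 2 lay beyond the 3' end. Regions are named here by the distance of their centre from the transcription start used by the table, with negative values upstream. Their widths ran from 160 to 2042 bp with a median of 526 bp, against 510 bp for all regions. Because ATAC-seq carries no strand, regions near Bach2os could not be given to either gene.

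Values are reads in a region scaled to 1000000 reads in all regions of the library (RPPM) and are not divided by width. That total includes regions on the mitochondrial chromosome. They took 7.43 to 10.1% of the reads in GCB libraries, 3.10 to 4.59% in nB and 2.56 to 3.12% in BMPC. Values of other regions are thereby scaled down slightly more in GCB, and no correction was made for this. Every value was a whole number of reads, and reads per library numbered 4104875 to 6079018 for nB, 907959 to 2280954 for GCB and 5357687 to 8232313 for BMPC. A count of 3 reads, taken as the floor, was worth between 0.493 and 0.731 RPPM in nB, between 1.32 and 3.30 in GCB and between 0.364 and 0.560 in BMPC. All libraries of the cell type held more than 3 reads in 49 of the 55 regions in nB, in 29 in GCB and in 41 in BMPC, so low regions were measured least precisely in GCB. The reads carry no molecular identifiers, and floors cover counting error only.

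Sequences that stand for the courses described are given here, as 300 bases of the mm9 plus strand at the centre of each region. The 3 regions with the largest decreases from C nB to C BMPC come first. The region with the largest increase from C nB to C BMPC (-112.1 kb), the one with the highest mean of all 55 in C BMPC (+11.7 kb) and the one with the largest increase from C GCB to C BMPC (+97.0 kb) follow, and the promoter is given as the 300 bases before the annotated start. Capitals mark matches on either strand to short cores of factors of B cells and plasma cells: PU.1 (GGAAGT), IRF (GAAAC), an ETS-IRF composite element, E2A (CAGCTG and CACCTG), BACH2/AP-1 (TGAGTCA), the octamer (ATGCAAAT), RUNX (TGTGGT) and FOXO (GTAAACA). A composite can overlap a PU.1 or an IRF core. In the promoter capitals mark CpG dinucleotides instead, the substrate of the DNA methyltransferases deleted here.
region at -19.1 kb, chr4:32306705-32307004, plus strand: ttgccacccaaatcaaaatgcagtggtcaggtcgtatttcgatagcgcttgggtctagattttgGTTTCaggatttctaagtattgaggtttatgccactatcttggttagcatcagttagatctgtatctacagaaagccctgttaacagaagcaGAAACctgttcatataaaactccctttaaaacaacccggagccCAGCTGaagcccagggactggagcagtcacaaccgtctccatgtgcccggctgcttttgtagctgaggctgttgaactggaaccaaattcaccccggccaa
region at -7.0 kb, chr4:32318808-32319107, plus strand: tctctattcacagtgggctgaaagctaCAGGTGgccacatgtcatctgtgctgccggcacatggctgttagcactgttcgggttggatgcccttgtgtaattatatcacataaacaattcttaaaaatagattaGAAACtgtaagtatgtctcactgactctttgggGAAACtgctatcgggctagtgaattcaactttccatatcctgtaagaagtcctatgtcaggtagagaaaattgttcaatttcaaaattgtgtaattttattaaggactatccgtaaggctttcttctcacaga
region at +316.9 kb, chr4:32642637-32642936, plus strand: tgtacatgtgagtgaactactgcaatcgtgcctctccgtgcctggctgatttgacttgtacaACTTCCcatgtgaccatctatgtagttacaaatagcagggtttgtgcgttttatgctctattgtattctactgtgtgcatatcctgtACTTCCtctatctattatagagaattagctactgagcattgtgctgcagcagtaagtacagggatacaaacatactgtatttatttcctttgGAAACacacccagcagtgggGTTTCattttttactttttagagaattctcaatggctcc
region at -112.1 kb, chr4:32213709-32214008, plus strand: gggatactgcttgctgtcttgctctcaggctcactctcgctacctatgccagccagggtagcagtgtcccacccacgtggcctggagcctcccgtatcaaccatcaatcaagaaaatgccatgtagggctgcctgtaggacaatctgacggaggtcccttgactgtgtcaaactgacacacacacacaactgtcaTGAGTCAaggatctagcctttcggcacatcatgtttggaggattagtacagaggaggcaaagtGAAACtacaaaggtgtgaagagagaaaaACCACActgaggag
region at +11.7 kb, chr4:32337447-32337746, plus strand: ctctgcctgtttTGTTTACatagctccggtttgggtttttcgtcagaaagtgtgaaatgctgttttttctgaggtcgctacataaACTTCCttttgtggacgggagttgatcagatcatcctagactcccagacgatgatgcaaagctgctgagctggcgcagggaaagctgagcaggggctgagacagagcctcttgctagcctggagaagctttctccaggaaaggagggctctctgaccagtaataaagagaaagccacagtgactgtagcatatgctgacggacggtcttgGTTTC
region at +97.0 kb, chr4:32422735-32423034, plus strand: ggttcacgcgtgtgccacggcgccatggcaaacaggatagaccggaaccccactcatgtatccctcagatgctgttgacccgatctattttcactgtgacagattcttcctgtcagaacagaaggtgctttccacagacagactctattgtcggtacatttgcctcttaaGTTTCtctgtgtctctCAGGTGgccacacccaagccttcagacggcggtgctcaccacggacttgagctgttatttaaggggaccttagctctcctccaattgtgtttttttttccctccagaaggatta
Bach2 promoter, chr4:32325479-32325778, plus strand: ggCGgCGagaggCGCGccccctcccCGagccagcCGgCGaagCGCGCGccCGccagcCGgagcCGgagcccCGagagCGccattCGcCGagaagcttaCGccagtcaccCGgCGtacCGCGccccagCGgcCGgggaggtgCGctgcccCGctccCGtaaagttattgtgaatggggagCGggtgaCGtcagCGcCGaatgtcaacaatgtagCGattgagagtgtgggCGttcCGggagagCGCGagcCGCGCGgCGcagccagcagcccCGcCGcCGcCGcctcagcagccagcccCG

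The promoter window held 45 CpG and was 73.7% G or C, while no other Bach2 region held more than 13 CpG in its central 300 bases. The median over the 55 regions was 5 CpG, as it was over the 65893 regions on named chromosomes, and 3 Bach2 regions had none. The windows at -19.1, -7.0 and +316.9 kb each held 2 IRF cores, and the window at +316.9 kb also held 2 PU.1 cores. The window at -112.1 kb held a BACH2/AP-1 core, an IRF core and a RUNX core. An IRF core was found in 63.6% of the Bach2 regions and 55.4% of all regions, a PU.1 core in 36.4% and 30.3%, and a BACH2/AP-1 core in 7.27% and 6.4%. The CACCTG form of the E2A core was found in 21.8% and 26.8%, and the CAGCTG form in 20% and 20.6%. A RUNX core was found in 27.3% and 24.5%, a FOXO core in 5.45% and 4.06%, the ETS-IRF composite in 7.27% and 5.7% and the octamer in 3.64% and 3.96%. These are matches of letters and not measured binding sites.

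Accessibility over the whole locus was highest in nB. The 55 regions summed to 793 ± 56.6 RPPM (SD, n = 3) in C nB, 649 ± 0.361 RPPM (SD, n = 2) in C GCB and 583 ± 32.7 RPPM (SD, n = 3) in C BMPC. In KO the sums were 837 ± 30.2 RPPM (SD, n = 2) in nB, 576 ± 25.2 RPPM (SD, n = 4) in GCB and 501 ± 30.0 RPPM (SD, n = 2) in BMPC. Every nB library, the lowest at 741 RPPM, lay above every GCB library, the highest at 649.7 RPPM. Within each genotype GCB lay above BMPC, with C GCB at 649 and 649.7 RPPM against 546 to 604 RPPM in C BMPC, and KO GCB at 552 to 599.8 RPPM against 479.9 and 522 RPPM in KO BMPC. Across genotypes the libraries of GCB and BMPC overlapped. A lower sum can come from fewer cells with an open region or from less cutting in each cell, and these cannot be told apart in bulk libraries.

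**Figure D1:**
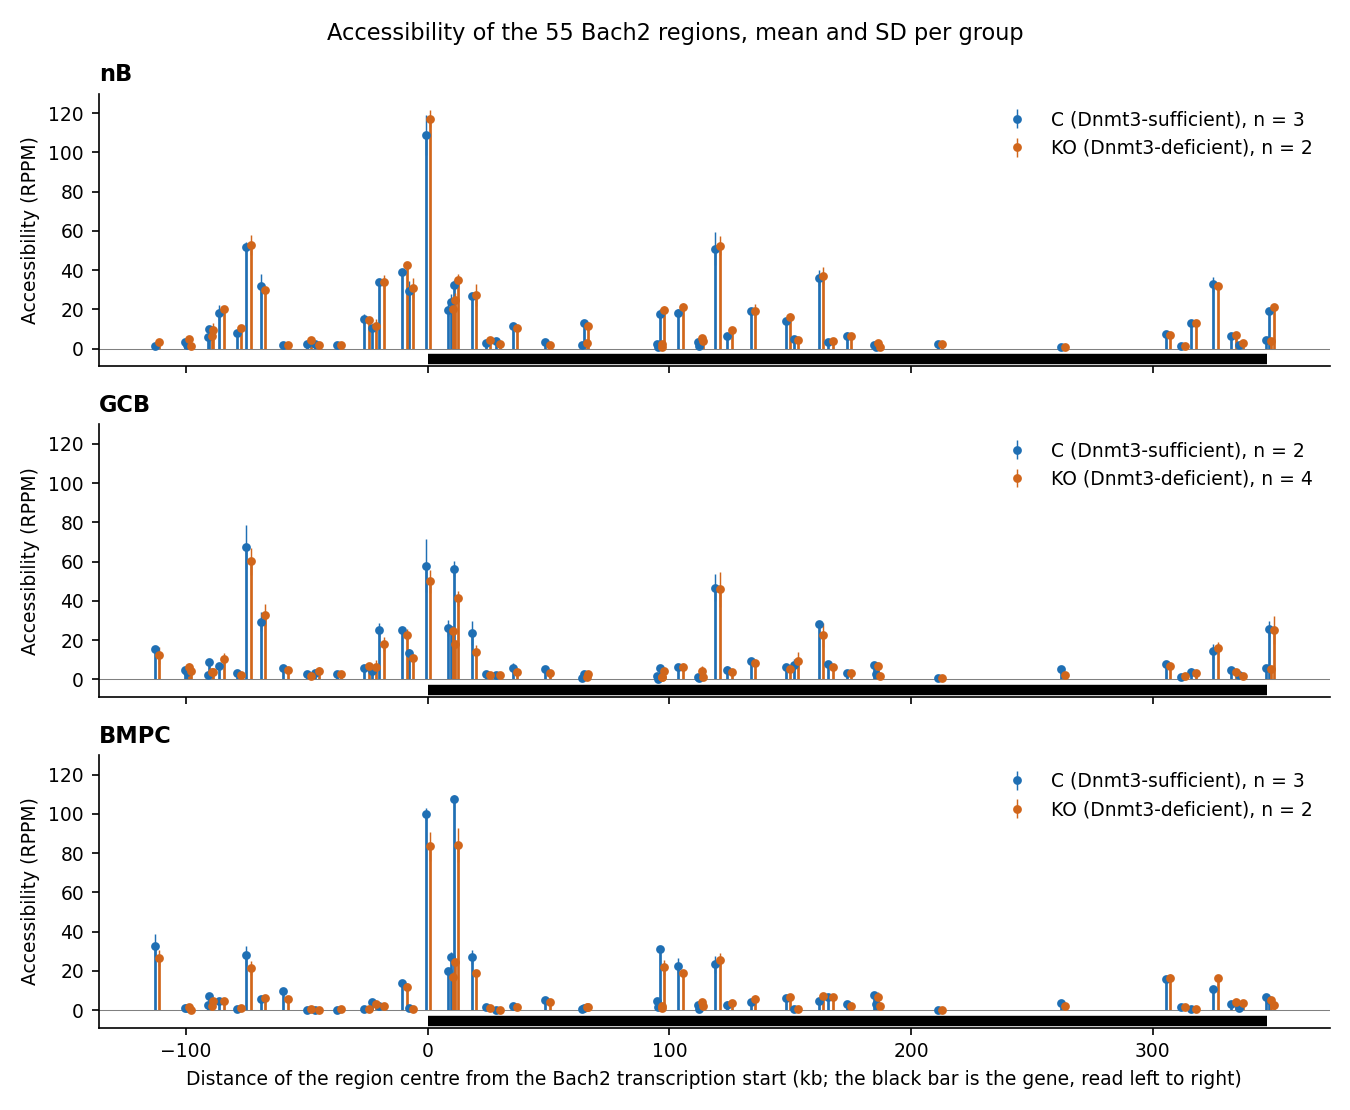
Mean accessibility in RPPM (y axis, with SD bars) of the 55 Bach2 regions against the distance of each centre from the transcription start in kb (x axis), for C (blue) and KO (orange) libraries of nB, GCB and BMPC. The promoter stands highest in nB, the intronic region at +11.7 kb reaches a like height in BMPC, and most regions upstream of the promoter are lower in BMPC than in nB, with that at -112.1 kb the reverse.

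The loss of signal in BMPC was unequal along the locus. The 18 upstream regions summed to 268 ± 21.1 RPPM in C nB, 230 ± 11.3 RPPM in C GCB and 116 ± 12.9 RPPM in C BMPC (SD, n = 3, 2 and 3). The 34 regions inside the gene summed to 392 ± 25.7, 330 ± 2.52 and 355 ± 18.5 RPPM in the same groups. The region at +11.7 kb by itself contributed means of 32.4, 56.3 and 108 RPPM to these sums, against the direction of the locus. Sums without it were not computed, so they do not show that accessibility inside the gene was broadly kept in BMPC. The upstream sums of the 5 BMPC libraries, from 90.9 to 127 RPPM, did not overlap those of nB, from 246 to 288 RPPM, or of GCB, from 206 to 238 RPPM. Inside the gene, with the region at +11.7 kb included, C BMPC (336 to 373 RPPM) overlapped C nB (370.0 to 420.5 RPPM). KO BMPC (298 to 334 RPPM) lay below KO nB (394 to 431 RPPM). The cell type with the highest mean was nB at 28 of 55 regions, GCB at 13 and BMPC at 14 among C libraries, and at 31, 13 and 11 among KO libraries.

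**Figure D2:**
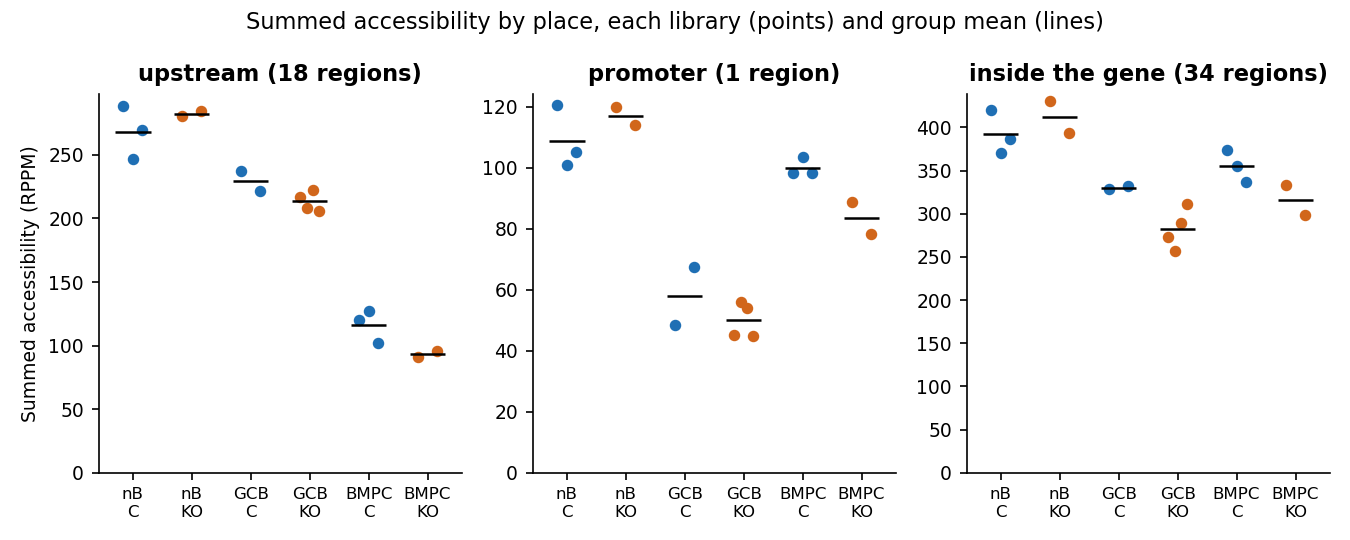
Summed accessibility in RPPM (y axis) of the upstream regions, the promoter and the regions inside the gene, in each library (points, C blue and KO orange) with the group mean (line). Upstream sums of BMPC lie at 127 RPPM or below and those of the other cell types at 206 RPPM or above, while the promoter is lowest in GCB.

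The promoter, a single region of 2042 bp at chr4:32325145-32327186, was open in every library, at no less than 44.7 RPPM. It measured 121, 101 and 105 RPPM in the 3 C nB libraries and 120.1 and 114 RPPM in the 2 KO nB libraries. In GCB it measured 48.4 and 67.5 RPPM in C and 45.2, 56.0, 53.9 and 44.7 RPPM in KO. In BMPC it measured 98.2, 104 and 98.3 RPPM in C and 88.8 and 78.4 RPPM in KO. All 6 GCB libraries lay below all libraries of the other cell types, and C BMPC overlapped C nB. The fitted log2 fold change on the log2(RPPM + 1) scale was -0.91 ± 0.13 (SE; limma adjusted p = 1.39e-06) for C GCB against C nB and -0.12 ± 0.11 (limma adjusted p = 0.392) for C BMPC against C nB. In KO the GCB promoter was called lower than the nB promoter, with a log2 fold change of -1.22 ± 0.12 (limma adjusted p = 3.87e-09), where C missed the 2-fold limit, and under quantile scaling KO missed it too (-0.97). The difference between the genotypes in this change was not called (interaction -0.30 ± 0.17, limma adjusted p = 0.845). The promoters of the neighbouring genes Map3k7, Casp8ap2 and Mdn1 were not called between C BMPC and C nB either. Each also had its lowest C mean in GCB, so a low GCB value was not particular to the Bach2 promoter. In C nB, GCB and BMPC the means were 56.2, 45.6 and 79.1 RPPM at Map3k7. They were 79.1, 56.4 and 69.0 RPPM at Casp8ap2 and 37.9, 22.9 and 31.5 RPPM at Mdn1.

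Fewer Bach2 regions gained than lost accessibility from nB to GCB. Regions counted as changed, or called, when the limma p, adjusted over all 66177 regions, did not exceed 0.01 and the change reached 2-fold. Among C libraries 5 of 55 Bach2 regions were called higher in GCB than in nB and 11 lower, where 14.2% of all regions were higher and 8.47% lower. As shares of the Bach2 regions these are 9.09% and 20%. The median log2 fold change of the 55 was -0.21, against 0.05 over all regions. Of the 11 lower regions 5 were upstream and 6 intronic. Without the second C GCB library 8 regions in all were called instead of 16.

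The largest decreases in GCB that passed the test stood at +65.4, +316.9 and +97.0 kb, all in introns. The region at +65.4 kb measured 12.7, 14.3 and 11.9 RPPM in C nB and 3.96 and 1.87 RPPM in C GCB, a log2 fold change of -1.88 ± 0.32 (limma adjusted p = 2.96e-05). It stayed low in C BMPC, at 1.69, 0.547 and 0.623 RPPM. In KO it measured 10.7 and 12.0 RPPM in nB and between 2.20 and 3.07 RPPM in the 4 GCB libraries. None of the GCB libraries reached the nB range, but the 2 C GCB values came from 9 and 4 reads. The decrease at +316.9 kb (log2 fold change -1.63 ± 0.33, limma adjusted p = 0.000237) was not called without the second C GCB library (-1.18, adjusted p = 0.0202), and its values are given with BMPC below.

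The region at +97.0 kb, with its neighbour at +104.6 kb, showed a different course, with accessibility lost in GCB and present in both nB and BMPC. At +97.0 kb C libraries measured 20.7, 16.4 and 16.4 RPPM in nB, 5.72 and 5.62 RPPM in GCB, and 32.4, 31.0 and 29.9 RPPM in BMPC. KO libraries measured 21.1 and 18.7 RPPM in nB, 4.41, 5.73, 3.07 and 4.19 RPPM in GCB, and 24.5 and 19.2 RPPM in BMPC. All GCB libraries lay below 6 RPPM and all others above 16 RPPM. Among C libraries GCB was lower than nB by a log2 fold change of -1.49 ± 0.22 (limma adjusted p = 2.98e-06), and BMPC was higher than GCB by 2.27 ± 0.22 (limma adjusted p = 1.46e-09), a 5.49-fold ratio of means. At +104.6 kb the C means were 18.2, 6.33 and 22.7 RPPM in nB, GCB and BMPC, and the log2 fold change of C BMPC against C GCB was 1.69 ± 0.23 (limma adjusted p = 6.64e-07). These 2 regions were called in the same directions in KO, with log2 fold changes of KO BMPC against KO GCB of 2.11 ± 0.20 and 1.50 ± 0.22.

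Of the 5 regions that rose in C GCB, the region at -112.1 kb changed most, and it is described with BMPC below. The region at +262.9 kb, which overlaps an exon, measured 0.244, 1.32 and 0.186 RPPM in C nB and 5.28 and 5.15 RPPM in C GCB (log2 fold change 2.04 ± 0.39, limma adjusted p = 0.000106). Behind the C nB values stood 1, 7 and 1 reads, and with a pseudocount of 5 RPPM the fitted change was 0.88 and not called. In KO GCB it measured between 1.32 and 3.82 RPPM, and KO GCB against KO nB was not called (log2 fold change 0.72 ± 0.37, limma adjusted p = 0.106). The difference between these changes was not called (interaction -1.33 ± 0.53, limma adjusted p = 0.765). The region at +185.6 kb measured 1.46, 1.13 and 2.79 RPPM in C nB and 6.16 and 8.43 RPPM in C GCB (log2 fold change 1.60 ± 0.31, limma adjusted p = 0.000143), and was called higher in KO GCB as well (1.10 ± 0.29, limma adjusted p = 0.00291). The KO call was lost without the first KO nB library (limma adjusted p = 0.0171), without the second (limma adjusted p = 0.0497) and under quantile scaling (0.72, limma adjusted p = 0.0539), and with a pseudocount of 5 RPPM the call was lost in KO (0.63) and in C (0.86).

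The step from nB to BMPC changed the locus most. Among C libraries 24 of 55 Bach2 regions were called lower in BMPC and 6 higher, where 20.1% of all regions were lower and 18% higher. The lower regions are 43.6% of the Bach2 regions and the higher ones 10.9%. The median log2 fold change of the 55 regions was -0.79, against 0.03 over all regions. Of the 18 upstream regions 11 were lower and 2 higher, and of the 32 intronic regions 12 were lower and 3 higher. The remaining called regions were 1 lower beyond the 3' end and 1 higher that overlaps an exon.

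**Figure D3:**
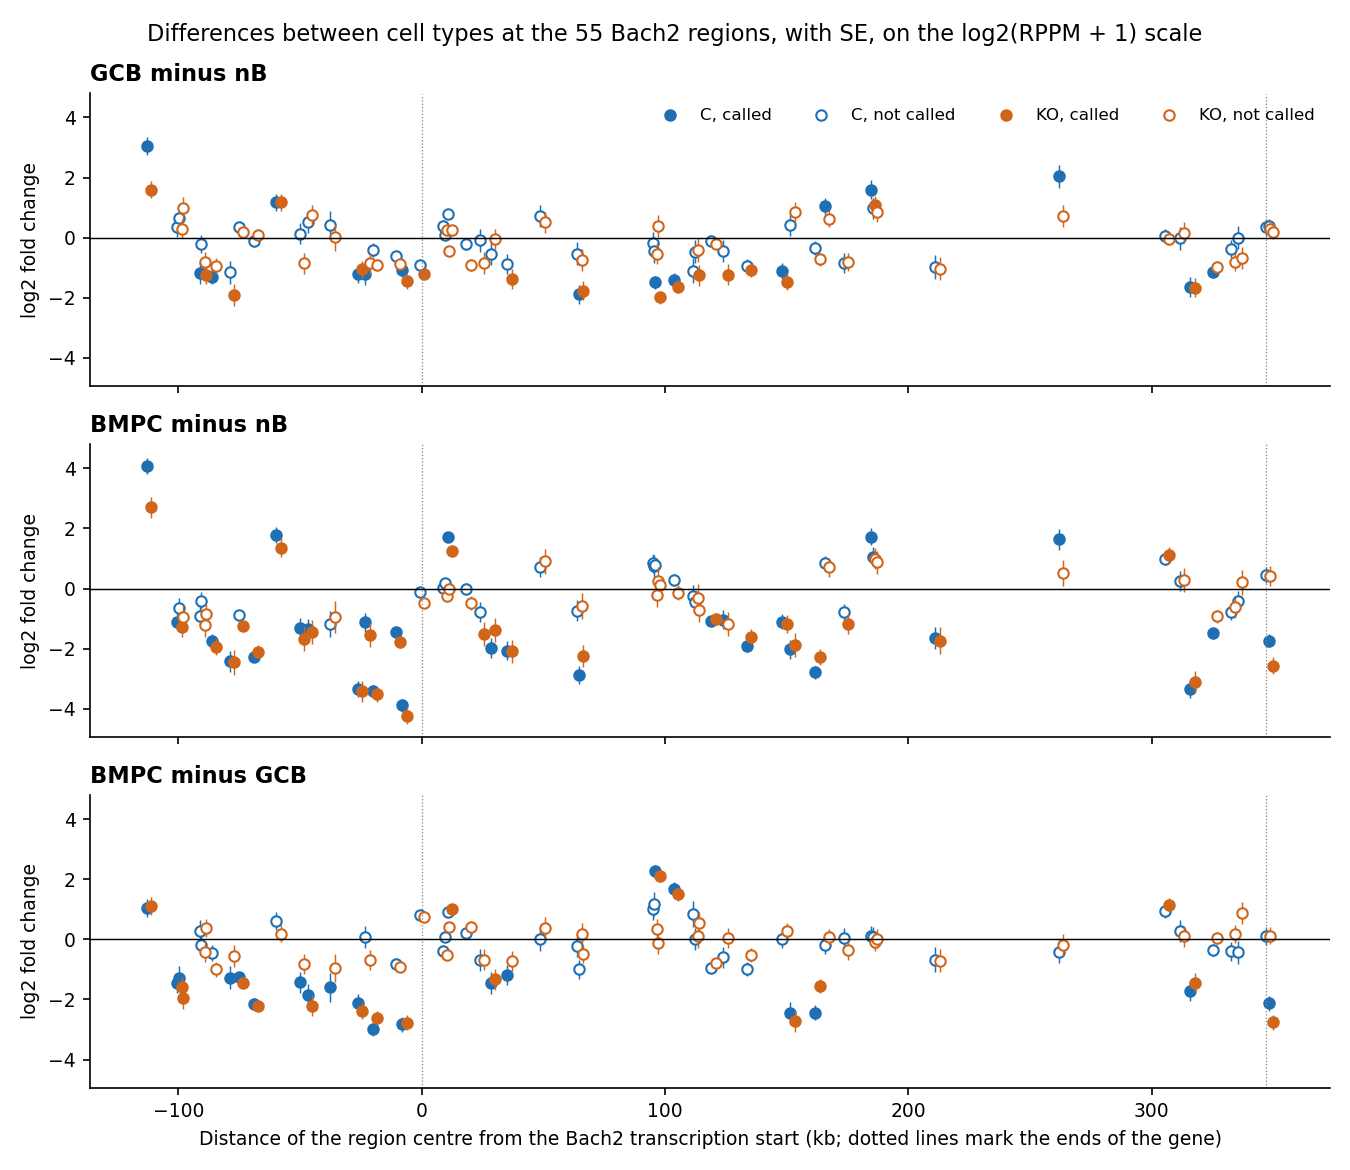
Log2 fold change on the log2(RPPM + 1) scale (y axis, with SE bars) of the 55 Bach2 regions between cell types, against the distance from the transcription start in kb (x axis), in C (blue) and KO (orange) libraries, filled where called. Between BMPC and nB the called changes run from -3.89 to 4.08 in C and from -4.22 to 2.70 in KO, and most lie below 0.

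The 2 regions within 20 kb upstream of the start that closed most were those at -7.0 and -19.1 kb, whose sequences are given above. At -7.0 kb the C nB libraries measured 34.8, 24.7 and 28.8 RPPM, the C GCB libraries 15.0 and 12.2 RPPM, and the C BMPC libraries 0.650, 1.46 and 1.09 RPPM. The KO libraries measured 27.3 and 34.6 RPPM in nB, 8.81, 11.5, 11.8 and 10.5 RPPM in GCB, and 0.850 and 0.560 RPPM in BMPC. The 3 cell types did not overlap, in the order nB, GCB, BMPC. C BMPC was lower than C nB by a log2 fold change of -3.89 ± 0.22 (limma adjusted p = 3.37e-14), a 27.6-fold ratio of means, and lower than C GCB by -2.83 ± 0.25 (limma adjusted p = 3.53e-10). The BMPC values rest on 5, 8 and 7 reads in C and 7 and 3 in KO.

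At -19.1 kb C GCB lay nearer to C nB than to C BMPC. The C libraries measured 33.9, 34.5 and 33.5 RPPM in nB, 27.7 and 23.0 RPPM in GCB, and 3.38, 1.82 and 1.87 RPPM in BMPC. The KO libraries measured 36.7 and 31.7 RPPM in nB, 22.0, 13.4, 18.4 and 18.2 RPPM in GCB, and 2.07 and 2.05 RPPM in BMPC. C GCB was not called against C nB (log2 fold change -0.41 ± 0.23, limma adjusted p = 0.142), while C BMPC was lower than C GCB by -3.00 ± 0.23 (limma adjusted p = 1.85e-11), a 10.7-fold ratio of means. KO GCB was lower than KO nB by -0.91 ± 0.21 (limma adjusted p = 0.000988), which missed the 2-fold limit. Against C nB the log2 fold change of C BMPC was -3.41 ± 0.20 (limma adjusted p = 6.39e-14). The region at -9.6 kb, which lies between this pair, fell less, from 38.9 RPPM in C nB to 13.7 RPPM in C BMPC (log2 fold change -1.44 ± 0.15, limma adjusted p = 3.65e-09).

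The third of the largest decreases was at +316.9 kb, at the far end of the gene and nearest the start of Bach2os. It measured 12.4, 13.9 and 13.2 RPPM in C nB, 5.28 and 2.34 RPPM in C GCB, and 0.520, 0.365 and 0.311 RPPM in C BMPC. The KO libraries measured 13.8 and 11.8 RPPM in nB, 2.20, 5.09, 3.07 and 3.50 RPPM in GCB, and 0.850 and 0.373 RPPM in BMPC. The cell types again did not overlap, but the C BMPC values stood on 4, 2 and 2 reads, near the floor. The log2 fold change of C BMPC against C nB was -3.34 ± 0.30 (limma adjusted p = 1.72e-10). The region at +333.4 kb, the nearest to the annotated start of Bach2os, was not called (6.34 RPPM in C nB and 3.35 RPPM in C BMPC).

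Against this loss a few regions opened. The region at -112.1 kb, which is nearer the transcript of Map3k7 but has the Bach2 start as its nearest start, measured 0.244, 1.51 and 1.49 RPPM in C nB, 16.7 and 14.1 RPPM in C GCB, and 29.5, 39.6 and 29.3 RPPM in C BMPC. The KO libraries measured 4.61 and 2.16 RPPM in nB, 18.7, 9.55, 10.1 and 10.5 RPPM in GCB, and 23.7 and 29.3 RPPM in BMPC. Its cell types stood in the reverse order of those at -7.0 kb, without overlap. C BMPC exceeded C nB by a log2 fold change of 4.08 ± 0.28 (limma adjusted p = 8.55e-13), a 30.4-fold ratio of means over 1, 8 and 8 reads in C nB. The rise from C GCB to C BMPC was 1.04 ± 0.31 (limma adjusted p = 0.00621), just past the 2-fold limit, and leaving out any C library of either cell type ended that call.

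The intronic region at +11.7 kb, 1505 bp wide, was the most accessible Bach2 region in C BMPC. It measured 30.5, 31.5 and 35.2 RPPM in C nB, 53.7 and 59.0 RPPM in C GCB, and 108, 110 and 105 RPPM in C BMPC. The KO libraries measured 37.2 and 32.5 RPPM in nB, 40.8, 36.3, 43.8 and 44.7 RPPM in GCB, and 90.3 and 77.8 RPPM in BMPC. In C each cell type lay above the one before it, whereas KO nB and KO GCB overlapped. The log2 fold change of C BMPC against C nB was 1.71 ± 0.11 (limma adjusted p = 3.69e-13). Less accessible regions that also rose were those at -58.8 kb, from 2.07 RPPM in C nB to 9.59 RPPM in C BMPC (1.79 ± 0.26, limma adjusted p = 1.31e-06), and at +185.6 kb, from 1.79 to 7.98 RPPM (1.72 ± 0.28, limma adjusted p = 5.93e-06). In KO the rise at -58.8 kb was called (1.36 ± 0.32, limma adjusted p = 0.000846). That at +185.6 kb was not (0.999 ± 0.34, limma adjusted p = 0.0158). With a pseudocount of 5 RPPM the C call at +185.6 kb (0.94) and the KO call at -58.8 kb (0.68) were lost.

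**Figure D4:**
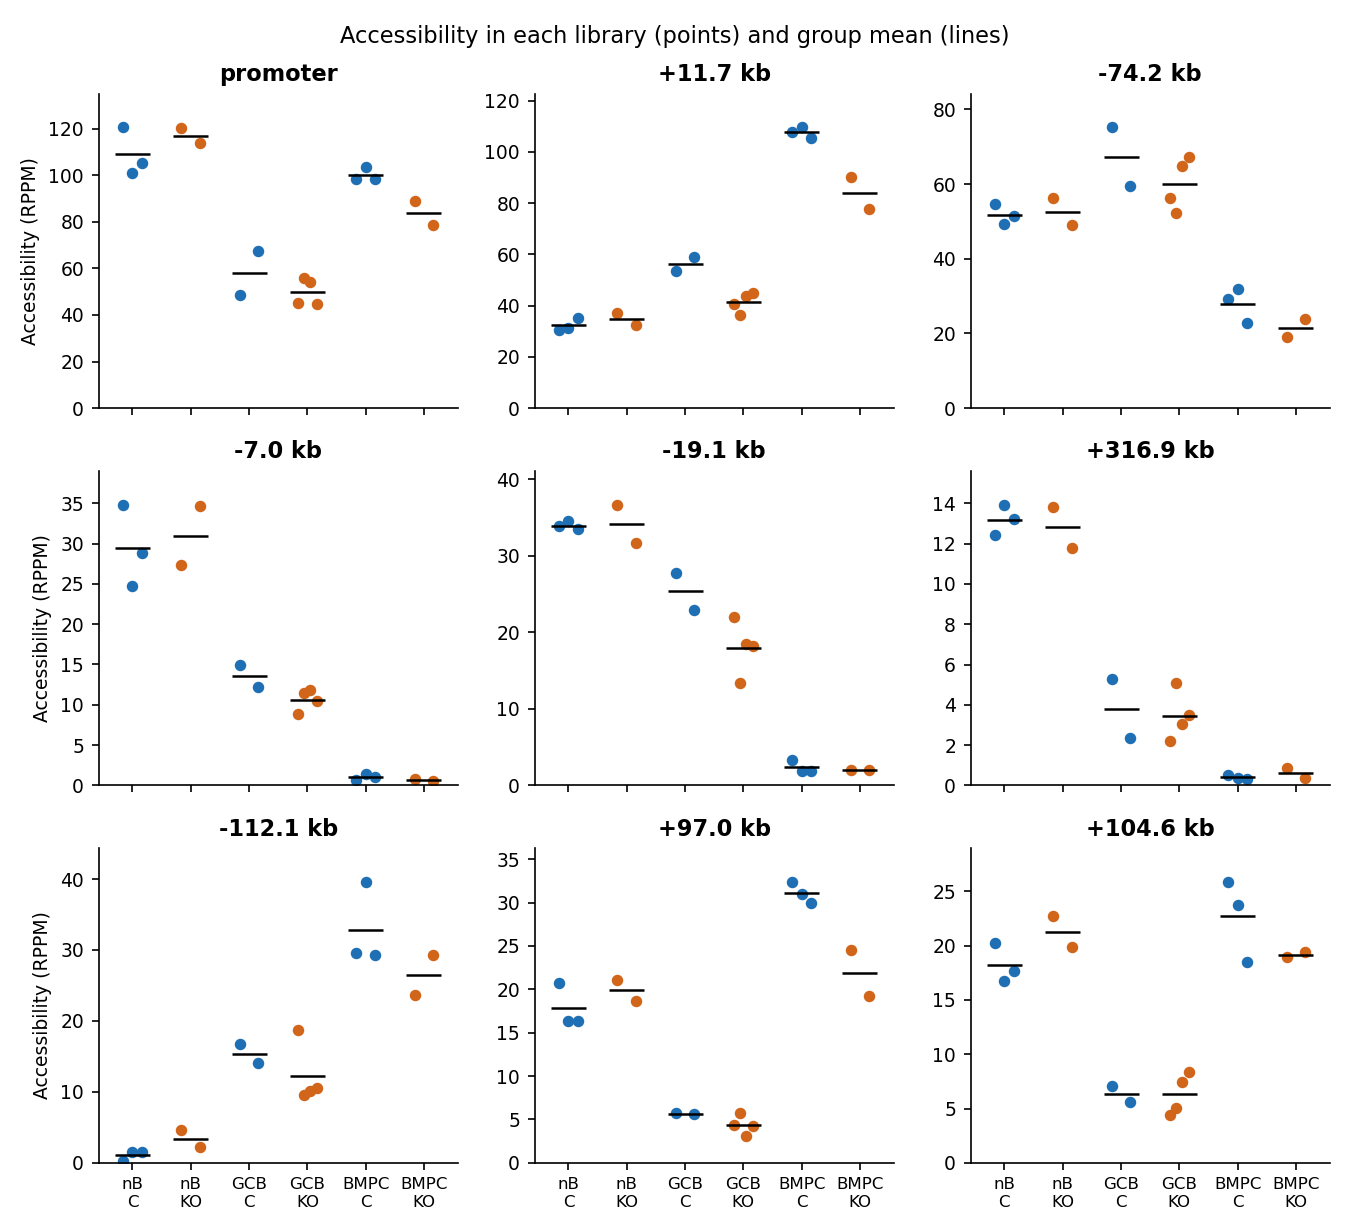
Accessibility in RPPM (y axis, from 0 and scaled per panel) of 9 Bach2 regions in each library (points, C blue and KO orange) with the group mean (line), for the 6 groups on the x axis. The regions at -19.1, -7.0 and +316.9 kb fall to 3.38 RPPM or less in BMPC, those at -112.1 and +11.7 kb rise, and those at +97.0 and +104.6 kb are lowest in GCB.

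Between GCB and BMPC 3 Bach2 regions were called higher in C BMPC and 17 lower, where 11.3% of all regions were higher and 19.1% lower. The median log2 fold change of the 55 was -0.40, against -0.06 over all regions. The lower regions comprised 11 of the 18 upstream regions, 5 intronic regions and 1 beyond the 3' end. Besides those at -19.1 and -7.0 kb, the largest decrease was at +152.5 kb, where C libraries measured 4.84 and 9.37 RPPM in GCB and 0.650, 0.182 and 0.467 RPPM in BMPC (log2 fold change -2.45 ± 0.36, limma adjusted p = 2.39e-06). In C nB this region measured 4.14, 4.52 and 5.77 RPPM, so that it was lowest in BMPC among C libraries. The C BMPC values stood on 5, 1 and 3 reads, near the floor. With a pseudocount of 5 RPPM the decrease from nB to BMPC was not called in C (-0.85) or in KO (-0.78). The region at -74.2 kb, 1 of the 3 with the highest mean over the groups, measured 75.2 and 59.5 RPPM in C GCB and 29.3, 31.9 and 22.7 RPPM in C BMPC (-1.24 ± 0.15, limma adjusted p = 1.32e-07), and 54.6, 49.2 and 51.6 RPPM in C nB.

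The cell type changes in KO, measured in other libraries, ran mostly in the same directions. From KO nB to KO GCB 3 regions were called higher and 14 lower, where 18.4% of all regions were higher and 7.84% lower, and 11 in all were called without the first KO nB library. From KO nB to KO BMPC 4 were higher and 25 lower, where 18.4% and 16.9% of all regions were, 35.3% in all. From KO GCB to KO BMPC 5 were higher and 13 lower, where 12.1% and 19.9% of all regions were. Between nB and BMPC 25 regions were called in the same direction in both genotypes, which is 25 of the 30 called in C and of the 29 called in KO. Of the regions called higher in C BMPC, those at -112.1, -58.8 and +11.7 kb were also called in KO. Those at +185.6, +186.4 and +262.9 kb were not. For GCB against nB 10 were shared of 16 and 17, and for BMPC against GCB 16 of 20 and 18. No region was called in opposite directions, and the sign of the fold change was shared at 48, 50 and 41 of the 55 regions in the 3 comparisons. The same sharing was not counted over all regions, so these counts do not set Bach2 apart from other loci.

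None of the 55 Bach2 regions was called between KO and C in any cell type by limma, in the fit of group means described, or by the quasi-likelihood test of edgeR on the recovered reads. Over all regions limma called 0% in nB, 0.0317% in GCB, all higher in KO, and 0.104% in BMPC, of which 0.0907% were higher in KO and 0.0136% lower. At an unadjusted limma p under 0.05 stood 2 Bach2 regions in nB, 9 in GCB and 12 in BMPC. In nB both were higher in KO, as were 0.63% of all regions at that limit, with 1.04% lower. In GCB 3 were higher and 6 lower, where 7.45% and 4.34% of all regions were, and in BMPC 4 were higher and 8 lower, where 6.96% and 2.59% were. The likelihood ratio test of edgeR called 1 Bach2 region in BMPC, at +95.9 kb, which measured 4.94, 5.29 and 3.58 RPPM in C and 1.46 and 2.43 RPPM in KO (log2 fold change -1.36, adjusted p = 0.00566), and none in nB or GCB. Over all regions that test called 2.53% in BMPC, 0.0181% in GCB and 0.0151% in nB, and the quasi-likelihood test 1.81%, 0.00151% and 0.0106%. The likelihood ratio test put 4, 7 and 17 Bach2 regions at an unadjusted p under 0.05 in nB, GCB and BMPC, which is 7.27%, 12.7% and 30.9% of them, where 5.5%, 7.37% and 21.1% of all regions stood. None of the differences between cell types in the effect of genotype was called by limma or by the quasi-likelihood test, the likelihood ratio test called 1 for BMPC against nB, and 6, 4 and 3 regions stood at an unadjusted limma p under 0.05 for GCB against nB, BMPC against nB and BMPC against GCB. All 6 and all 4 of the first pair lay below 0, where 2.06% and 1.3% of all regions did at that limit, and in the last 1 lay below 0 and 2 above, where 3.7% and 4.63% did.

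The region with the smallest limma p in nB was that at -112.1 kb, at 4.61 and 2.16 RPPM in KO and at most 1.51 RPPM in C (log2 fold change 1.09 ± 0.31, limma adjusted p = 1). In GCB it was the region at -89.6 kb, at 4.41, 3.82, 4.82 and 1.40 RPPM in KO and 8.80 and 8.43 RPPM in C (-1.14 ± 0.29, limma adjusted p = 0.101). The KO values there stood on 4, 6, 11 and 2 reads. In BMPC it was the region at +11.7 kb, where both KO libraries lay below the 3 C libraries given above (-0.36 ± 0.12, limma adjusted p = 0.225). At this region the KO libraries of GCB also lay below both C libraries (-0.44 ± 0.12, limma adjusted p = 0.109), and in nB the genotypes overlapped. Neither difference passed the limits in limma. In BMPC edgeR gave +11.7 kb an adjusted p of 0.000675 (likelihood ratio) and 0.00362 (quasi-likelihood). Its log2 fold change of -0.42 missed the 2-fold limit. The likelihood ratio test gave -58.8, +19.2 and +97.0 kb adjusted p of 0.00485, 0.00769 and 0.00416. They were also lower in KO and short of 2-fold (-0.86, -0.57 and -0.56). No Bach2 region higher in KO had an adjusted p up to 0.01. The share of all regions at that p alone was not computed.

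The fitted fold change was below 0 at 38 of the 55 regions in GCB, at 32 in BMPC and at 18 in nB. It was above 0 at 17, 23 and 37 in the same order, where 53.8%, 54.2% and 47.3% of all regions were. Every KO library lay below every C library at 9 of the 55 regions in GCB and above at 0, where 5.52% of all regions lay below and 7.47% above. In BMPC KO lay below C at 13 and above at 7, where 13.8% and 20% of all regions did. In nB KO lay below C at 1 and above at 8, where 11% and 9.38% of all regions did. The median log2 fold change of KO against C over the 55 regions was 0.08 for nB, -0.15 for GCB and -0.13 for BMPC, where that over all regions was -0.01, 0.03 and 0.03. The nB median moved with single libraries, to -0.0039 without the second C nB library and to 0.16 without the first. The GCB median was -0.10 without the first C GCB library, and the BMPC median was -0.05 without the first C BMPC library.

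**Figure D5:**
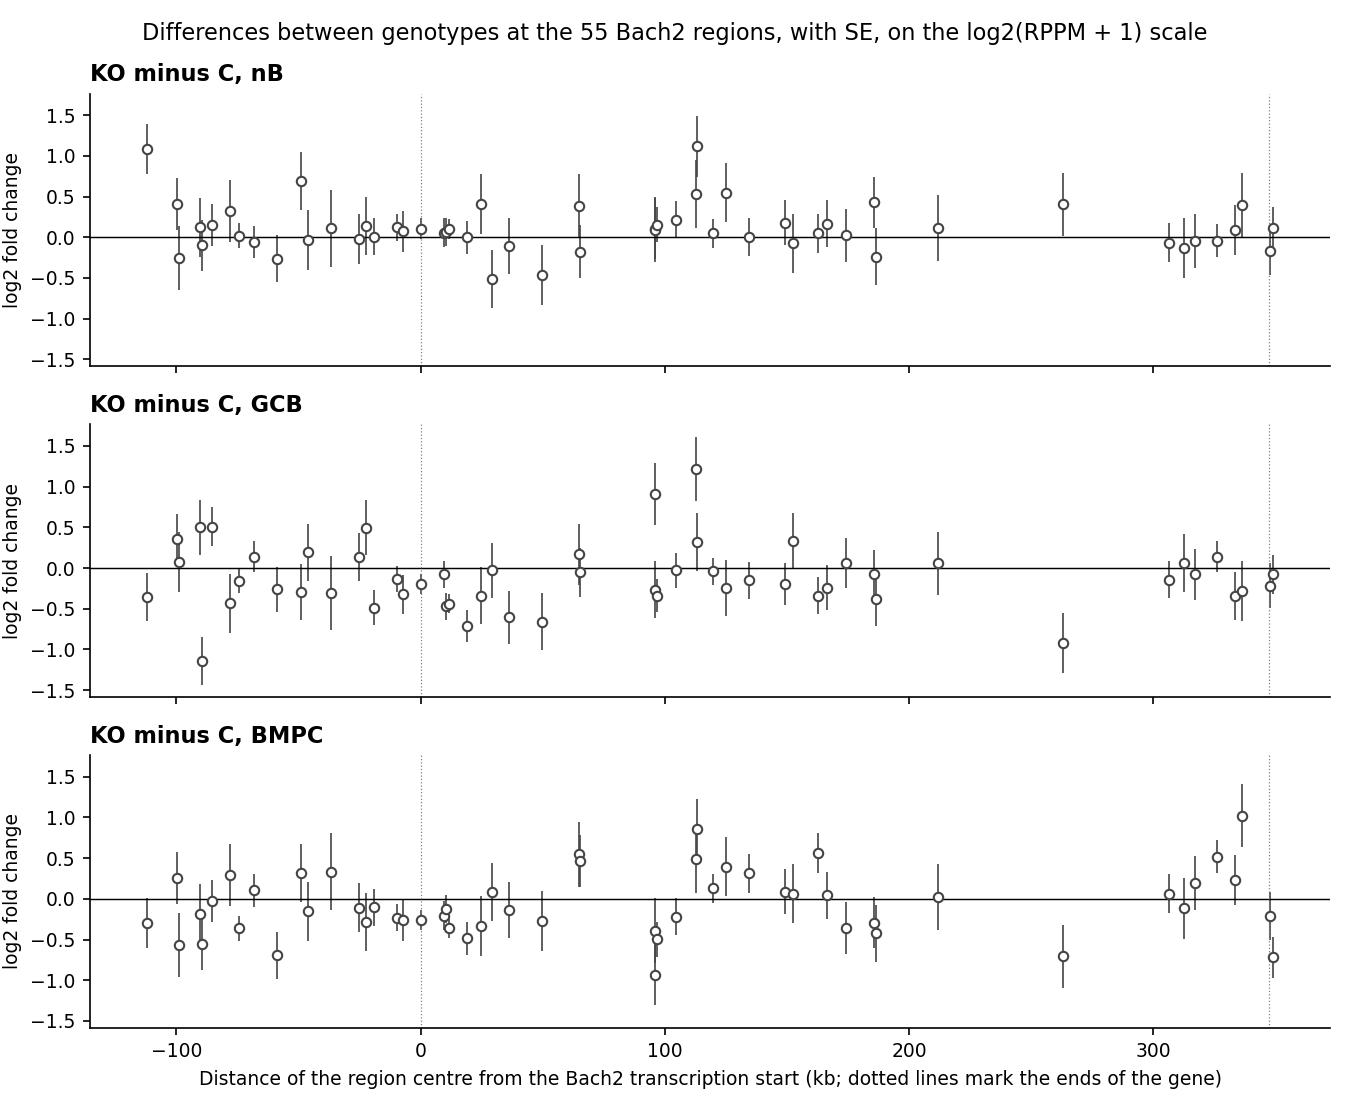
Log2 fold change of KO against C on the log2(RPPM + 1) scale (y axis, with SE bars) of the 55 Bach2 regions in nB, GCB and BMPC, against the distance from the transcription start in kb (x axis). All points are open because no region was called by limma, and the medians are 0.08, -0.15 and -0.13.

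Around Bach2 more regions gained than lost accessibility in BMPC. Within 1 Mb of the outermost Bach2 regions lay 70 regions not assigned to Bach2. Of these 27 were higher in C BMPC than in C nB and 4 lower. As shares these are 38.6% and 5.71%, where 18% and 20.1% of all regions were. The median log2 fold change was 0.84, against 0.03 over all regions. In C GCB against C nB 6 were higher and 5 lower (8.57% and 7.14%), where 14.2% and 8.47% of all regions were. In C BMPC against C GCB 17 were higher and 1 lower (24.3% and 1.43%), where 11.3% and 19.1% of all regions were. None was called between KO and C by limma.

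Across the 16 libraries the summed accessibility of other genes was compared with that of Bach2, over the 47 regions with Bach2 as the nearest start, among genes with at least 5 regions. The genes most like it by Pearson r on the log2(sum + 1) scale were Ebf1 (r = 0.963, 40 regions), a B lineage specification factor, Tbc1d1 (r = 0.951, 24 regions), a Rab GTPase activating protein, Hvcn1 (r = 0.947, 13 regions), a proton channel of B cells, Wdr26 (r = 0.944, 12 regions), a WD repeat protein, and Ets1 (r = 0.940, 34 regions), an ETS family transcription factor. The libraries form 3 cell types that differ in depth, and r was not computed within a cell type.

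Genes known to act with or against BACH2 were read in the same way, each by the regions with its start as the nearest. The 8 genes known as repressed by BACH2 (Prdm1, Hmox1, Cebpa, Cebpb, Csf1r, Cdkn1a, Cdkn2a and Cdkn2b) held 68 regions, of which 26 were higher in C BMPC than in C nB and 8 lower, with a median log2 fold change of 0.36 against 0.03 over all regions. At Prdm1 10 of 32 regions were higher and 7 lower, at Cdkn2b, a cell cycle inhibitor, 10 of 12 were higher, and at Hmox1, heme oxygenase, 4 of 5 were higher. At Cdkn2a 2 of 4 were higher, while Csf1r had 1 of 4 lower and Cebpa, Cebpb and Cdkn1a had no called region. The 5 plasma cell genes (Prdm1 again, Irf4, Xbp1, Zbtb20 and Sdc1) held 100 regions with 44 higher and 12 lower (median 0.67), of which Zbtb20 had 21 higher and 2 lower among 37. Among the 10 B cell identity genes 88 of 207 regions were lower and 27 higher (median -0.73), including 14 of 21 lower at Pax5, 12 of 40 lower and 8 higher at Ebf1 and all 4 regions of Spib lower. Foxo1 went the other way, with 4 of 23 higher and 2 lower, and Spi1 had no called region. The 8 genes of small Maf partners and CNC relatives held 31 regions with 4 higher and 7 lower (median 0.03), of which Bach1 had 1 higher and 3 lower among 11. As shares, 38.2% of the regions of the repressed genes, 44% of the plasma cell genes, 13.0% of the B cell identity genes and 12.9% of the CNC and Maf genes were higher, where 18% of all regions were, and 11.8%, 12%, 42.5% and 22.6% were lower, where 20.1% were. In C GCB against C nB 17.6%, 28%, 11.1% and 6.45% in the same order were higher, where 14.2% of all regions were, and 22.1%, 16%, 11.6% and 3.23% lower, where 8.47% were. In C BMPC against C GCB 27.9%, 26%, 10.6% and 6.45% were higher, where 11.3% of all regions were, and 5.88%, 7%, 33.3% and 19.4% lower, where 19.1% were. Of genes of corepressor complexes that BACH2 is known to bind, Tbl1xr1 had 10 of 26 regions lower in C BMPC than in C nB, Tbl1x 2 of 10, and Ncor1 1 of 7 lower and 1 higher, and Hdac3, Rif1 and Gps2 had 1 region each, not called. Between KO and C BMPC 1 region over these lists was called by limma, at Bcl11a among the 207 regions of the B cell identity genes, and it was higher in KO. Over all regions limma called 0.0907% higher and 0.0136% lower in this comparison, and nothing is read from a single call.

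Marker genes were each read at the region nearest the start. Ms4a1, the B cell surface protein CD20, had a range of 78.0 to 84.3 RPPM over nB libraries, 54.0 to 88.4 RPPM over GCB libraries and 11.7 to 16.6 RPPM over BMPC libraries. Pax5, the B cell identity factor, lay between 36.0 and 47.7 RPPM in nB, 15.4 and 24.8 RPPM in GCB and 2.02 and 3.89 RPPM in BMPC. Of germinal center markers S1pr2 lay between 12.4 and 16.01 RPPM in nB, 14.0 and 29.0 RPPM in GCB and 37.3 and 41.0 RPPM in BMPC. Fas lay between 13.6 and 18.5, 16.7 and 21.6, and 29.4 and 32.6 RPPM, and Mybl1 between 59.4 and 73.0, 74.1 and 91.9, and 79.1 and 84.6 RPPM, so these 3 genes did not set GCB above BMPC. Tnfrsf17, the plasma cell receptor BCMA, ran from 15.6 to 22.6 RPPM in BMPC and was at most 6.37 RPPM elsewhere, while Irf4, also a plasma cell marker, was higher in nB (55.1 to 61.2 RPPM) than in BMPC (38.9 to 46.9 RPPM). The 5 plasma cell markers summed to between 211 and 228 RPPM in BMPC, between 112 and 131 RPPM in GCB and between 164 and 184 RPPM in nB. The 4 naive markers summed to between 129 and 152 RPPM in nB, 41.9 and 55.2 RPPM in GCB and 34.3 and 45.9 RPPM in BMPC. Of 4 T cell genes 3 had a region, with sums from 63.5 to 74.7 RPPM in nB, 19.6 to 30.3 RPPM in GCB and 42.2 to 61.9 RPPM in BMPC, nearly all in nB from a region 4219 bp from the start of Cd3d, while Cd3e was at most 4.15 RPPM in any library and at 0 in at least 1 GCB library. A region near Cd4 ran the other way, from 0.658 to 1.18 RPPM in nB, 8.39 to 12.1 RPPM in GCB and 9.96 to 18.6 RPPM in BMPC. Of 4 myeloid genes 3 had a region, with sums from 13.2 to 16.6, 8.43 to 17.2 and 1.64 to 6.11 RPPM, and Cd8a and Lyz2 had none. The part of other cell types in the Bach2 values was not tested.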

How the data were processed

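ATAC-seq was measured in 17 labelled libraries, of which 16 had values. The remaining 1, a KO BMPC library, had no values and was not analysed here. The study states that 1 sample was dropped over its share of reads in peaks, but does not name it. The deposited values are RPPM (an RPM scaled to 1000000 reads in regions) for 66177 regions, the union of peaks called per sample with MACS2 2.1.0.20140616 after mapping to mm9 and marking of duplicates with Picard 1.127, as named in the submitters' notes, which also list Bowtie 1.1.1 and edgeR 3.12.1. The authors' own comparisons fill 54 further columns (such as fold changes and p-values), which were not used. All 1058832 values (100%, within a relative 0.0001) came out as whole reads.

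Members are all rows with Bach2 as nearest transcript or nearest start. Members, gene lists, markers and motifs were chosen with earlier results of these data known. Group means of log2(RPPM + 1) in 6 groups were fitted over 16 libraries with limma 3.58.1 (R 4.3.3, trended prior), Benjamini-Hochberg adjusted over 66177 regions with calls made up to an adjusted p of 0.01 and from 2-fold; fold changes on this scale understate those of low regions. Reads were also tested with edgeR 4.0.16 by the quasi-likelihood and likelihood ratio tests. Other pseudocounts, a filter on low regions, TMM, quantile scaling, a block on pool numbers and each library left out were tried. The fit was tested on simulated data. Replicates within a group differed beyond sampling noise. The study's legend gives as many mice as nB and BMPC libraries analysed here, and pooled mice for each GCB library. Regions described singly were the promoter, the 3 with the highest mean, up to 3 called with the largest change in each direction per comparison of C cell types, and the smallest p of KO against C in each cell type. Sequences were read from NCBIM37, the same assembly as mm9. Of the regions, 284 not on named chromosomes were not searched for motifs. Results that need certain marker and list genes are not reported here.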

Additional observations from a re-analysis of the deposited data

Results flagged for a closer look

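The region at -112.1 kb in KO GCB had 1 library apart from the others of its group. The first KO pool measured 18.7 RPPM, and the other 3 lay between 9.55 and 10.5 RPPM, so that the gap to the nearest took a share of 0.898 of the whole range, above Dixon's limit for 4 samples. This pool was the shallowest library of all, at 907959 reads, and its value stood on 17 reads. Over 16 measures looked at, all in the same 4 KO GCB libraries, chance flags about 1 in 20. The cause was not tested.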

How the results depend on the processing

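No fold change of a singly described region and no count of called regions reversed under the alternatives run. The median of KO against C in nB over the 55 regions changed sign, from 0.08 to -0.0039, without the second C nB library, and that of the interaction for BMPC against GCB changed from 0.06 to -0.05 without the first KO BMPC library. With a pseudocount of 5 RPPM, which shrinks the changes of low regions, the Bach2 regions called among C libraries were 5 for GCB against nB, 17 for BMPC against nB and 9 for BMPC against GCB, and among KO libraries 9, 17 and 10. The likelihood ratio test of edgeR called 1 region for KO against C in BMPC and 1 for the difference between BMPC and nB in that effect, and the cause was not tested. Leaving out each library in turn gave 8 to 17, 27 to 31 and 15 to 21 regions among C libraries and 11 to 21, 20 to 30 and 15 to 19 among KO libraries, and 0 to 0 for KO against C and for the interactions. The pool numbers shared by GCB libraries correlated at 0.0363 and 0.0638 over 2 pairs, and the labels do not say that a number marks a shared litter. A fit with these numbers as a replicate block called 1 region for KO against C in GCB, at -89.6 kb (log2 fold change -1.50, limma adjusted p = 0.00733), where the fit without it called 0, and moved no other count by over 1.5 times. That estimate rests on the 2 pairs that share a number, since each other KO GCB library had a number of its own. The KO values of these pairs at -89.6 kb stood on 6 and 2 reads. Of 464 values of single regions under the other alternatives 435 kept their side of the threshold, 28 lost the call and 1 gained it, and of 928 with 1 library left out 903 kept it and 25 lost it. Quantile scaling moved the median log2 fold change of all regions from 0.05 to -0.06 for C GCB against C nB and from -0.06 to 0.09 for C BMPC against C GCB. GCB libraries were the shallowest, and in them all libraries exceeded 3 reads at 29 of the 55 regions.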
